A study of Mus musculus with 12 samples.

Results

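Ubiquitin is a small protein that cells attach to other proteins to mark them for destruction, relocation or altered signalling. An activating enzyme (E1) charges ubiquitin, a conjugating enzyme (E2) carries it, and a ligase (E3) places it on a chosen target, while deubiquitinases remove it again. In lymphocytes, this system limits antigen and cytokine receptor signalling, and ligases such as Cbl-b and GRAIL are known for holding T cells in an unresponsive state.

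The genes described here are the ubiquitin ligases, conjugases, activating enzymes and deubiquitinases of lung group 2 innate lymphoid cells (ILC2s), taken by gene symbol from the 2 deposited tables. The symbol rule matched 96 of the 3439 genes that these tables list. The cells came from mice of the genotype TIGIT-Cre-ERT2:Rosa26-LSL-tdTomato. In these mice, a tamoxifen-dependent Cre recombinase made by TIGIT-expressing cells switches on the red protein tdTomato for good, so that a cell can stay red after it stops making TIGIT. Cells that expressed TIGIT only while Cre was inactive stay unmarked and count as tdTomato−. The sorted cells were few and came from male mice, per the study's methods, and whether libraries came from separate mice is not given in the sources used here. All mice received papain, a protease that acts as a nasal allergen, and tamoxifen, and the labels hold no untreated animals. The labels give 4 RNA libraries of tdTomato+ and 4 of tdTomato− ILC2s, beside 2 ATAC-seq libraries of each population, which are not analysed here. For each listed gene, the tables hold 1 measured level, the authors' log2 CPM averaged over libraries of both populations. CPM is a read count scaled to a common library total, so that it does not depend on depth but does depend on transcript length. This level carries no replicate error, and the depth and number of the libraries behind it are unknown here. The remaining numeric columns are the authors' own comparison and are not used here, so that the tables give the direction in which a gene was listed and no tested difference. Every listed gene has an average log2 CPM of at least 5.00, and a gene missing from the tables may be expressed below this limit or differ too little to be listed.

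All 8 ILC2 markers looked up, among them *Gata3* and the IL-33 receptor gene *Il1rl1*, were listed, and all of them stood in the table of genes that are lower in tdTomato+ ILC2s. Of the markers of other cells, 1 of 4 for T cells (*Cd3g*, average log2 CPM 6.12, also in the lower table) was listed, with 0 of 2 for B cells, 0 of 2 for NK cells and 0 of 3 for macrophages.

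Of the 96 ubiquitin genes, 91 stood in the table of genes that are lower in tdTomato+ ILC2s, and 5 in the table of genes that are higher there. These 91 made up 94.8% of the ubiquitin genes, and the lower table held 84.5% of all listed genes. The ILC2 markers stood in the same table, and their part in this was not tested. The 5 genes in the higher table were *Trim2*, *Usp13*, *Usp29*, *Usp54* and *Rnf17*. In such sorted bulk libraries, fewer cells that express a gene and less RNA per cell cannot be told apart.

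Against the annotation, the symbol rule matched 398 protein-coding mouse genes, of which 96 (24.1%) were listed. Among all 21951 annotated protein-coding genes, 3408 (15.5%) were listed. The roles differed in this share. Of the 13 HECT ligases, which pass ubiquitin over a cysteine of their own, 7 were listed, as were 4 of 7 UBR and U-box ligases, 12 of 37 E2 enzymes and 18 of 56 ubiquitin-specific proteases. By contrast, only 6 of 77 F-box proteins (7.79%) were listed, which choose the targets of cullin-1 ligases. The F-box genes comprised 1 of 36 *Fbxo*, 3 of 18 *Fbxl* and 2 of 23 *Fbxw* genes. The symbol rule also took in genes of other function, the cerebellins (*Cbln*), of which 0 of 4 were listed.

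**Figure D1:**
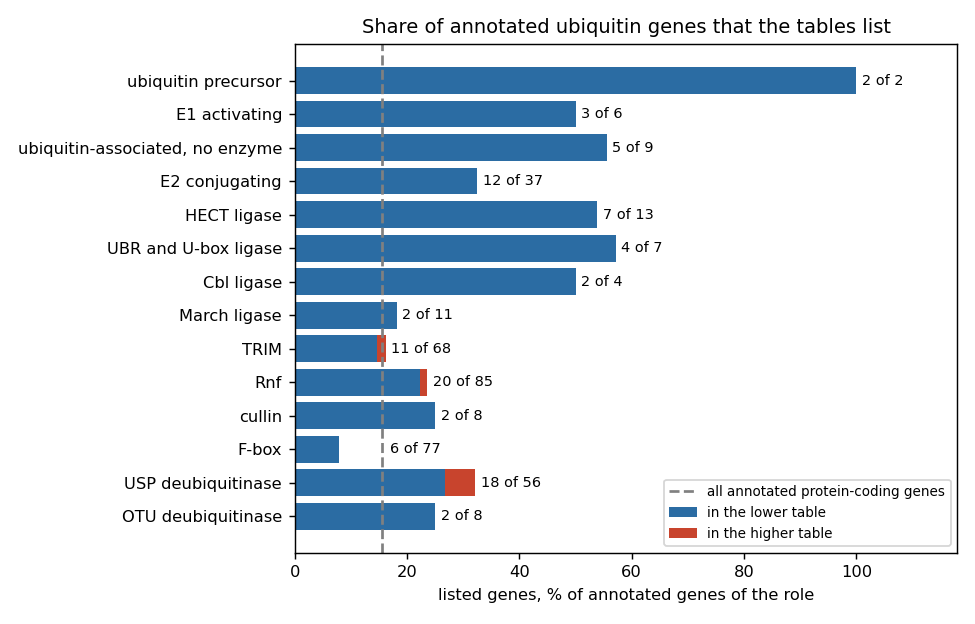
Bars show the listed genes of each role as a percentage of the annotated protein-coding genes of that role, in blue for the lower and in red for the higher table, with the counts beside them, and the dashed line marks all annotated protein-coding genes (15.5%). F-box proteins lie under this line with 6 of 77, and the HECT ligases well above it with 7 of 13.

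The average log2 CPM of the ubiquitin genes had a median of 6.16 and ran from 5.07 (*Ubac1*, a subunit of a ligase complex) to 8.98 (*Huwe1*). The other 3343 listed genes had a median of 6.24. Within the lower table, the ubiquitin genes had a median of 6.18 and the other genes 6.40. Converted from the log2 averages and summed, the 96 genes amounted to 9805 CPM, which is 0.981% of a library. The 5 genes with the highest average counts were *Huwe1*, *Ubb*, *Herc1*, *Ubr4* and *Ube2d3*, and they held 21.5% of this sum.

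**Figure D2:**
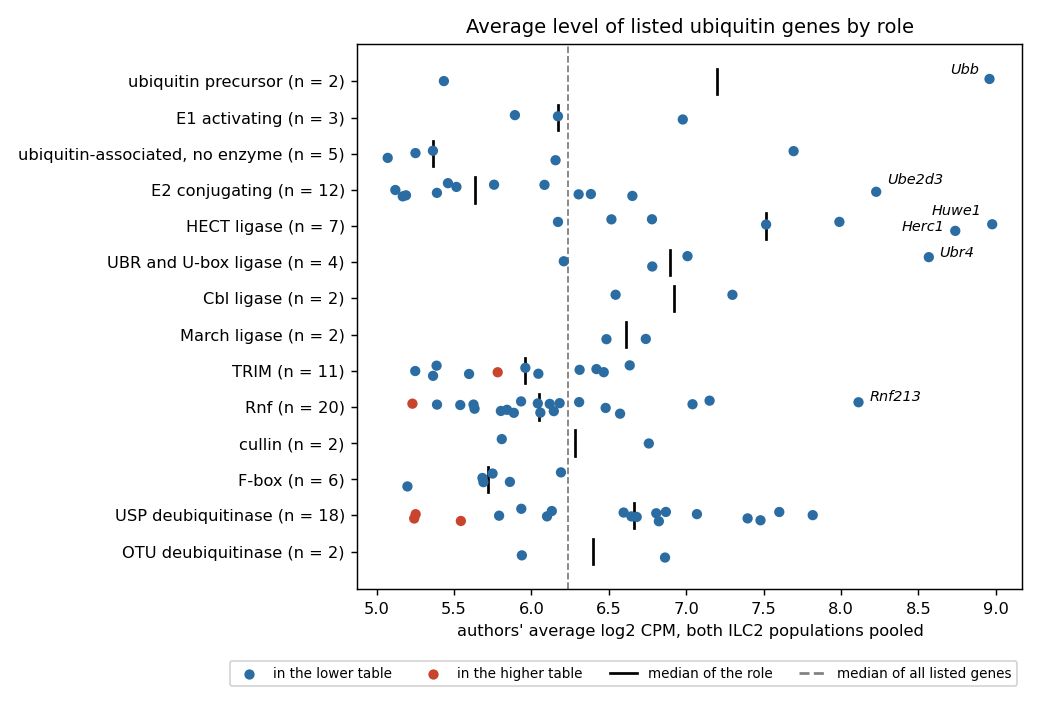
Each point is a listed ubiquitin gene at the authors' average log2 CPM over both ILC2 populations, by role, in blue for the lower and in red for the higher table, with a black line for the median of the role and a dashed line for all listed genes (6.23). The HECT ligases have a median of 7.52 and the E2 enzymes 5.64, and the 5 red genes lie between 5.23 and 5.78.

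Long transcripts yield more fragments than short ones, so the log2 CPM values order genes by their counts, and levels between genes were set side by side as CPM per kb, of exonic length unless another length is named. *Ubb* (ENSMUSG00000019505, chr11:62551171-62553213, plus strand, GRCm38), which encodes ubiquitin itself as a chain of repeats, had the highest level per exonic length, 297 CPM per kb, from an average log2 CPM of 8.96. It also ranked first by principal transcript (332 CPM per kb), but by coding length it had 544 CPM per kb and ranked behind *Ube2d3* (675 CPM per kb). Its near-identical repeats can share reads with other ubiquitin-coding sequence, and how such reads were counted is not given in the sources used here, so that its value is uncertain.

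Of 6 annotated E1 genes, 3 were listed, and all were in the lower table. *Uba1* (ENSMUSG00000001924, chrX:20658326-20683179), which charges most of the ubiquitin of a cell, had an average log2 CPM of 6.98 and 26.2 CPM per kb. *Uba2*, a subunit of the enzyme that activates SUMO, had 6.17 and 11.9 CPM per kb. *Uba7*, the activating enzyme of the interferon-induced modifier ISG15, had 5.89 and 8.88 CPM per kb. The ubiquitin E1 thus had the highest level per length of the listed E1 genes.

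All 12 listed E2 genes were in the lower table, with a median log2 CPM of 5.64. *Ube2d3* (ENSMUSG00000078578, chr3:135438149-135468198), an E2 that works with many RING ligases, had 8.23. Its level per length depended on the length taken, with 12.2 CPM per kb of its 24499 exonic bases, 78.2 CPM per kb of its principal transcript and 675 CPM per kb of its coding length. The lowest E2 gene in log2 CPM was *Ube2n*, which builds lysine-63-linked chains in NF-κB signalling, with 5.12. By exonic length, *Ube2n* (8.24 CPM per kb) lay above *Ube2k* (6.86 CPM per kb) and *Ube2l3* (6.24 CPM per kb). It lay below both by principal transcript, with 8.99 against 11.1 (*Ube2k*) and 12.6 CPM per kb (*Ube2l3*). The same held by coding length, with 76.3 against 90.2 and 79.0 CPM per kb. Also near the listing limit were *Ube2b* (5.17), which acts with *Rnf20* and *Rnf40* on histone H2B, and *Ube2l3* (5.19), an E2 of HECT and RBR ligases. The E2 gene of the related modifier NEDD8 (*Ube2m*, 5.39) was listed as well.

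The 7 listed HECT ligases were all in the lower table and were long genes, with a median exonic length of 15.4 kb against 5.80 kb over all 96 ubiquitin genes. *Huwe1* (ENSMUSG00000025261, chrX:151800807-151935417, plus strand), a giant ligase of p53, Mcl-1 and Myc proteins, ranked first in average counts with log2 CPM 8.98. With 23507 exonic bases it had 21.4 CPM per kb and ranked 15 per length. *Herc1*, at 8.74, had 15.6 CPM per kb. *Nedd4*, the founding member of a ligase family that acts on membrane proteins, had 7.52 and 16.7 CPM per kb. *Ube3a*, at 6.78, had 5.32 CPM per kb, and *Ube3b* was the lowest HECT ligase in counts at 6.17. Per length, the median of these 7 HECT ligases was 15.6 CPM per kb, close to the 15.5 CPM per kb of the other genes of the lower table. Over the other listed genes of both tables it was 13.8 CPM per kb.

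Ligases of the N-degron pathway, which reads destabilizing first residues of proteins, included *Ubr4* (8.57, 21.1 CPM per kb) and *Ubr2* (7.01). The related *Ubr3* had 6.78. The chain-elongating factor *Ube4a* had 6.21. Of the Cbl ligases, which mark activated receptors for uptake, *Cbl* (ENSMUSG00000034342, chr9:44142976-44234049, minus strand) had 7.30 and 12.8 CPM per kb, and *Cblb* (ENSMUSG00000022637, chr16:52031225-52208048, plus strand) had 6.54 and 8.91 CPM per kb. Of the membrane-bound March ligases, *Marchf6*, which works in the endoplasmic reticulum, had 6.74 and *Marchf7* had 6.48. All of these were in the lower table.

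The 20 listed *Rnf* genes ran from 5.23 (*Rnf17*) to 8.11 (*Rnf213*, a giant ligase and ATPase) in log2 CPM, and 19 of them were in the lower table. *Rnf128* (ENSMUSG00000031438, chrX:139563316-139673145), which encodes GRAIL, had 7.15 and 41.0 CPM per kb. By exonic length it ranked 3 among all ubiquitin genes, behind *Ubb* and *Rnf130* (45.4 CPM per kb). By principal transcript and by coding length it ranked 5, above *Rnf130*, which ranked 7 and 29. *Rnf20* (7.04) and *Rnf40* (6.18), which form the ligase of histone H2B, and *Rnf2* (5.39), a catalytic subunit of Polycomb repressive complex 1, were listed as lower. *Rnf125* had 29.4 and *Rnf166* 28.9 CPM per kb.

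Of the 11 listed TRIM genes, 10 were in the lower table. *Trim33*, a nuclear regulator of TGF-β signalling, was the highest in CPM with log2 6.63 (10.1 CPM per kb), and *Trim21*, a cytosolic antibody receptor, was the lowest with 5.25 (10.2 CPM per kb). Per length, these genes thus had nearly the same level. *Trim28*, the corepressor of KRAB zinc finger proteins, had 6.04. *Trim12c* (5.39) belongs to a group of closely related genes, and its reads may be divided among them. Of the cullins, the scaffolds of the largest class of ligases, *Cul3* had 6.76 (22.2 CPM per kb) and *Cul4b* had 5.81 (14.5 CPM per kb). The 6 F-box genes ran only from 5.20 (*Fbxl14*) to 6.19 (*Fbxl20*). They include *Fbxw11* (5.75), whose product recognizes phosphorylated IκB and β-catenin.

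Deubiquitinases made up 20 of the listed genes that the symbol rule matches. The 18 ubiquitin-specific proteases had a median log2 CPM of 6.66, from 5.24 (*Usp54*) to 7.82 (*Usp34*), and 15 of them were in the lower table. Per length, *Usp25* (7.60, 37.3 CPM per kb) was the highest. *Usp8* (23.1 CPM per kb), which acts on endosomes, followed, and then *Usp1* (18.8 CPM per kb), which acts in DNA repair. This order held by exonic length only. By principal transcript *Usp25* (40.7 CPM per kb) stayed highest, but *Usp7* (28.0 CPM per kb) lay above *Usp8* (23.3 CPM per kb). By coding length *Usp3* (65.7 CPM per kb) lay above *Usp25* (61.4 CPM per kb). *Usp7* (6.81) stabilizes Mdm2 among other proteins, and *Usp22* (5.79) belongs to the SAGA coactivator complex. Of the OTU family, *Otud4* had 6.86 and *Otud5* 5.94, both in the lower table. The 3 *Usp* genes of the higher table were the lowest of the family in log2 CPM, with *Usp22* next above them.

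Of the 5 ubiquitin-binding genes that the symbol rule takes in without their being such enzymes, *Ubap2l*, a stress granule protein, had 7.69 and *Ubac1* 5.07. All 5 were in the lower table.

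The 5 genes of the higher table had little RNA per length. *Trim2* (chr3:84160439-84306877, minus strand), a ligase best known from neurons, had an average log2 CPM of 5.78 and 2.79 CPM per kb. *Usp29* (chr7:6730578-6967219, plus strand), an imprinted gene known from brain, had 5.54 and 2.58 CPM per kb. *Usp13* (chr3:32817546-32938071, plus strand) had 5.25 and 5.01 CPM per kb, and *Usp54* (chr14:20548912-20641063, minus strand) had 5.24 and 4.17 CPM per kb. *Rnf17* (chr14:56402581-56525032, plus strand), a Tudor domain protein known from male germ cells, had 5.23 and 6.02 CPM per kb. Their median was 4.17 CPM per kb, against 12.8 CPM per kb for the 91 genes of the lower table, of which 3 lay below *Rnf17*. The medians of all listed genes were 4.53 CPM per kb in the higher and 15.4 CPM per kb in the lower table. The quartiles of the higher table were 3.78 and 5.63 CPM per kb, so that *Trim2* and *Usp29* lay below its middle range, *Rnf17* above it and the other two within it. Their median exonic length was 9.07 kb, against 5.62 kb for the ubiquitin genes of the lower table, and 10.5 kb over the whole higher table. At the listing limit, set by counts and not by counts per length, a gene with a low level per length is listed only if it is long. By the principal transcript the medians were 6.19 and 18.6 CPM per kb, with 1 gene of the lower table below the highest gene of the higher table. By coding length the medians were 14.8 and 38.1 CPM per kb, but 16 genes of the lower table then lay below the highest gene of the higher table.

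**Figure D3:**
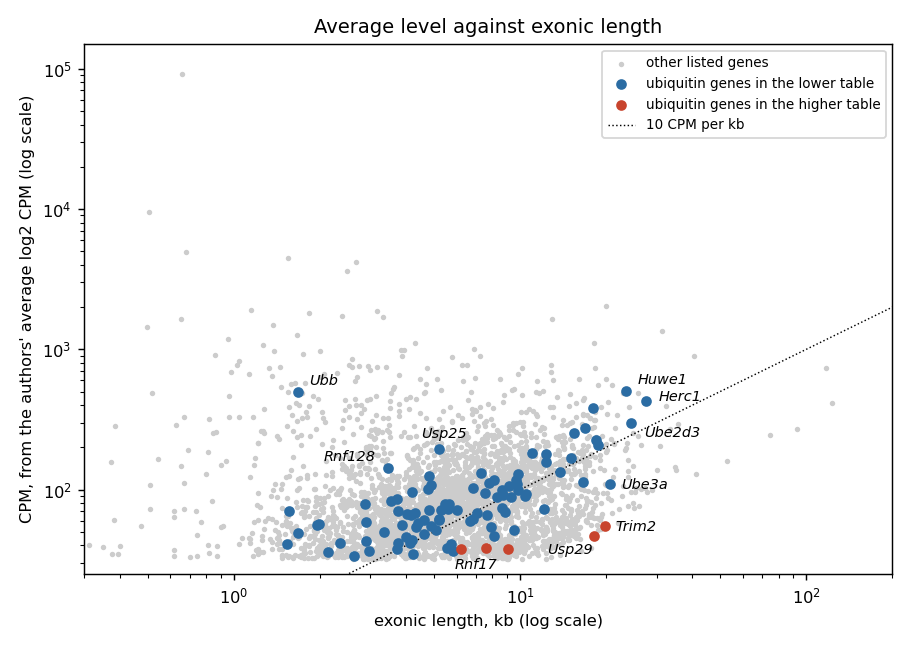
Each listed gene is plotted by its exonic length in kb and by its CPM, converted from the authors' average log2 CPM, on log axes, with ubiquitin genes of the lower table in blue, of the higher table in red and all others in grey, and a dotted line at 10 CPM per kb. *Ubb* stands far above the line at 297 CPM per kb, *Huwe1* and *Herc1* combine high counts with great length, and the 5 red genes lie under the line.

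On the chromosomes, 6 of the 96 ubiquitin genes (6.25%) were X-linked, against 3.00% of all listed genes. They were *Huwe1*, *Usp9x*, *Rnf128*, *Uba1*, *Otud5* and *Cul4b*, and all were in the lower table, where 3.51% of all genes were X-linked. Of the 533 genes in the higher table, 1 was X-linked (0.188%).

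The promoters of the ubiquitin genes were compared by their CpG dinucleotides, since promoters rich in CpG are typical of broadly expressed genes. Below, the 100 bases before the start of transcription are shown 5′ to 3′ for 3 genes of the lower table, which stand for ubiquitin itself, for E1 and for ligases, and for 2 of the higher table. The sequences are from RefSeq on GRCm38.p6, and each CpG is in capitals. They lie at chr11:62551071-62551170 (*Ubb*, plus strand), chrX:20658202-20658301 (*Uba1*, plus strand), chr9:44234047-44234146 (*Cbl*, minus strand), chr3:32817526-32817625 (*Usp13*, plus strand) and chr7:6730483-6730582 (*Usp29*, plus strand).
*Ubb*: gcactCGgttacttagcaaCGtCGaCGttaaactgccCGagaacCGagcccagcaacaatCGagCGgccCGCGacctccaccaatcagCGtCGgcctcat
*Uba1*: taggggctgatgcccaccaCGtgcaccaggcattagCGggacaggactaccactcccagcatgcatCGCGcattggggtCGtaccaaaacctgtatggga
*Cbl*: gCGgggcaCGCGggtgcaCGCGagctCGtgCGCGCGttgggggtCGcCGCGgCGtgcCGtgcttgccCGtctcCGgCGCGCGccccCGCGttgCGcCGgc
*Usp13*: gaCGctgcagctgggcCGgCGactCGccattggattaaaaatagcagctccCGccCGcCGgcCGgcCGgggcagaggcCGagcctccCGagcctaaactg
*Usp29*: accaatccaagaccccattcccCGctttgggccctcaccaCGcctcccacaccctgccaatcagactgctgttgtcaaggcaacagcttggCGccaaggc

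In these 100 bases, *Cbl* has 23 CpG dinucleotides, *Ubb* 12, *Usp13* 11, *Uba1* 5 and *Usp29* 3. Over 300 bases (250 before and 50 after the start), RefSeq promoters were found for 81 of the 96 genes. The ratio of observed to expected CpG had a median of 0.885 in 77 ubiquitin genes of the lower table and of 0.829 in all 2329 genes of that table with a promoter. It was above 0.6, a usual limit for CpG islands, in 69 of the 77 (89.6%) and in 79.9% of the 2329. Of all 32851 promoters, 35.8% were above it. The ubiquitin genes of the lower table were thus mostly of the CpG-rich kind, and so was most of that table. The other 8 had ratios of 0.08 (*Rnf20*, whose RefSeq start lies 6619 bases from the annotated gene start), 0.13 (*Uba7*), 0.15 (*Trim21*), 0.17 (*Trim12c*), 0.47 (*Trim56*), 0.49 (*Ube2l3*), 0.53 (*Ube2b*) and 0.58 (*Fbxo11*). In the higher table, *Usp13* had a ratio of 0.89, *Trim2* 0.72, *Usp29* 0.58 and *Usp54* 0.31, with the RefSeq starts of *Trim2* and *Usp54* lying 2102 and 22709 bases from the annotated gene starts. Promoters were found for 401 of the 533 genes of the higher table (75.2%), under the 80% set as the least coverage for a comparison, which the lower table just reached (80.1%), so that the whole higher table was not compared.

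**Figure D4:**
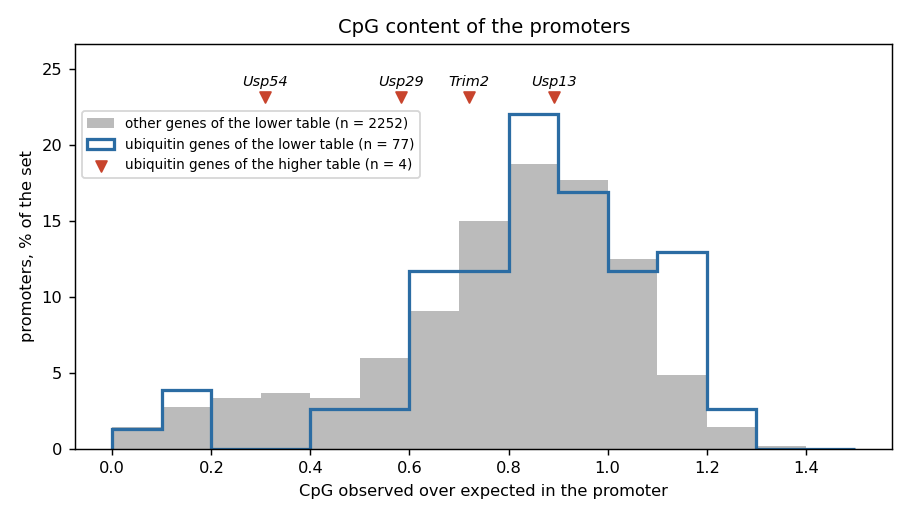
Histograms give the ratio of observed to expected CpG in 300-base promoters as a percentage of the 77 ubiquitin genes (blue line) and of the 2252 other genes (grey) of the lower table, and red triangles mark the 4 ubiquitin genes of the higher table with a promoter, at no particular height. Most blue promoters lie above 0.6, and *Usp54* lies at 0.31.

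A set of 6 short motifs was sought in the same 300 bases on both strands, and none of them contains another. The ETS core CCGGAA was present in 20 of the 77 ubiquitin genes of the lower table (26.0%), in 29.7% of all genes of that table and in 14.9% of all promoters. The GATA motif AGATAA was present in 1 of the 77 (*Cul4b*), in 5.80% of the lower table and in 11.2% of all promoters. The KLF motif CCACACCC was present in 3 of the 77 (3.90%), in 4.04% of the lower table and in 3.56% of all promoters. TATAAA was present in 6 of the 77 (7.79%), in 7.47% of the lower table and in 13.6% of all promoters. The heat shock motif GAANNTTC was present in 2 of the 77 (2.60%), in 5.62% of the lower table and in 7.86% of all promoters. The cAMP response motif TGACGTCA was present in 3 of the 77 (3.90%), in 3.39% of the lower table and in 1.79% of all promoters. The median GC content was 65.7% in the ubiquitin genes of the lower table, 62.7% in the whole lower table and 52.7% in all promoters, and its part in these shares was not tested. A match describes letters in the window and is no sign of binding.

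Other genes of the ubiquitin system were taken from a list of 75 ligase subunits, regulators, modifiers and enzymes whose symbols the rule leaves out. Of these, 35 were in the lower table, 0 in the higher table, and 40 were not listed, where 15.5% of all annotated protein-coding genes were listed and 84.5% of all listed genes were in the lower table. The list was made by hand with earlier results of these data known. Their median log2 CPM was 6.36, and their median level was 13.6 CPM per kb. The highest was *Tnfaip3*, encoding A20, which edits ubiquitin chains to limit NF-κB signalling, with 9.81 and 124 CPM per kb. *Cyld*, a deubiquitinase of the same pathway, had 7.20, and *Birc3*, a ligase in it, had 7.31. *Ndfip1*, the adaptor that activates *Nedd4* family ligases, had 7.46 and 27.7 CPM per kb. *Skp1*, a part of cullin-1 ligases, had 46.5 CPM per kb. Of the genes that serve cullin ligases more widely, *Nedd8* had 28.7 CPM per kb, and *Cand1*, which exchanges their substrate receptors, had 13.6 CPM per kb. The ubiquitin-like modifier *Sumo2* had 40.1 CPM per kb.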

How the data were processed

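RNA was sequenced from sorted tdTomato+ and tdTomato− lung ILC2s. Alignment by the authors used STAR and the GRCm39 assembly, followed by featureCounts for gene counts and edgeR for the comparison (the submitters' processing notes name mm10, and versions and the use of strand are not given in the sources used here). The 2 deposited tables give each listed gene the authors' average log2 CPM over libraries, the only value used. Their remaining columns hold the authors' fold changes, likelihood ratios, p-values and false discovery rates, and were not used. Without values of single libraries, the planned tests were not run, no difference between the populations was estimated, and the precision is unknown.

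CPM was computed as 2 to the power of the average. Exonic length (union of exons), principal transcripts (APPRIS tag), coding length and positions came from GENCODE M21 on GRCm38 by Ensembl identifier, found for 3436 of 3439 listed genes and all 96 members, and this annotation differs from that of the authors. Promoters were RefSeq entries matched by symbol or synonym, taking the start nearest to the annotated gene start. Of all listed genes, 2730 had one, and promoters of the ubiquitin genes of the lower table were compared with that table and with all RefSeq promoters, but not with the higher table, whose coverage was too low. Members and lists were chosen with earlier results of these data known. Named genes were the 5 highest and 5 lowest in average log2 CPM, the extremes of each role and every gene of roles with 3 or fewer, and further genes were named for their function after their values were seen. Some genes under this rule are not reported here. Genes are not replicates, so no test was made across them. Functions were checked on simulated data. Software was Python 3.11.15, numpy 2.4.6, pandas 2.3.3 and matplotlib 3.10.9.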

Additional observations from a re-analysis of the deposited data

How the results depend on the processing

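The tables hold pooled averages, so nothing below is a test, and alternatives that need single libraries (another tool, a filter, a pseudocount, leaving out replicates) were not run. No paired analysis was possible because no value of a single library is in the tables used. A change of over 0.1 on the log2 scale was counted as a shift. The median log2 CPM of the ubiquitin genes shifted to 6.65 when only genes over 6 were kept, which follows from the stricter limit. Their median stayed below that of the other listed genes under all alternatives tried, by 0.08 as reported (difference -0.08), and the difference was -0.22 within the lower table, an alternative chosen after seeing the data. The median level per length, 12.4 CPM per kb, was 1.87 by genomic span, 37.3 by coding length and 18.2 by principal transcript, the last chosen after seeing the data. Relative to the other listed genes it was 0.901-fold as reported, 0.779-fold by genomic span and 0.828-fold by coding length. The median CpG ratio of 0.88 was the same with the 67 promoters whose start lies within 1000 bases of the gene start, also chosen after seeing the data.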
